A study of Gallus gallus with 13 samples.

Results

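The regions described here are short stretches of chicken chromosome 1 that lead in S1, the earliest of 4 sorted fractions of S phase, in wild-type (Wt) DT40 cells. They were chosen from the Wt profiles alone. The 1st percentile of each fraction's scores was subtracted, what lay below it became 0, and the remainder was divided by its mean. The scaled signal was then averaged over 20 kb windows. Consecutive windows with the highest signal in S1 formed a run, and runs shorter than 400 kb were kept. This gave 141 runs of 1078 windows, out of 784 runs and 9787 windows with a leading fraction. The short runs held 49.2% of the 2191 windows led by S1, and 38 runs of 400 kb or more held the other 1113.

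DT40 cells are chicken B cells that derive from a lymphoma of the bursa. The tested cells were 1 homozygous clonal line labelled 2x (βA-globin+ β-actin), called the clone here. The series' design text gives it 1 module of cis-regulatory elements on both alleles in a region of chromosome 1 from 71981290 to 73532377 (galGal5), while the label reads 2x. The exact insertion position is not stated for it. The other line was Wt. In Repli-seq, cells are pulsed with BrdU (here for 1 h), sorted by DNA content into S1 to S4, and the BrdU-labelled nascent DNA is sequenced. Each of the 4 fractions was 1 library per line, so differences carry neither a replicate error nor a test. The 5 other samples of the series (1 asynchronous and 4 Hi-C libraries) were not analysed here.

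Replication starts at origins that fire in groups, and forks then move outward into neighbouring DNA. A group of origins that fires early inside later DNA therefore leaves a peak in the earliest fraction, with the next fractions appearing at growing distance on both sides. Early-replicating DNA in vertebrate cells is usually gene-rich and transcribed, and late DNA gene-poor. No gene or sequence is named for the runs, since no genome or annotation of the galGal5 build was used here.

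The runs fell into 2 main kinds by the fraction that led in the windows next to them in Wt. In 78 of the 141 runs S2 led on both sides, the next fraction in time. In 53 runs S4, the latest fraction, led on both sides, and S1 passed to S4 with no S2-led or S3-led window between. The remaining 10 runs had other pairs of neighbours or lay at the end of the profile. The kinds were drawn from Wt after the data had been seen, so the Wt values below describe the choice, and the clone profiles are the values that the choice did not use.

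The runs flanked by S2 were long and those flanked by S4 were short. The median length was 200 kb for the S2-flanked runs (15500 kb in all) and 60 kb for the S4-flanked runs (4660 kb in all). Of the S4-flanked runs, 32 of 53 were 20 to 60 kb long, against 9 of 78 S2-flanked runs. The deposited profiles are smooth, with a correlation of 0.971 in the clone and 0.974 in Wt between S1 values 20 kb apart. Runs of 1 or a few windows therefore lie at or below the scale over which the profiles vary.

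**Figure D1:**
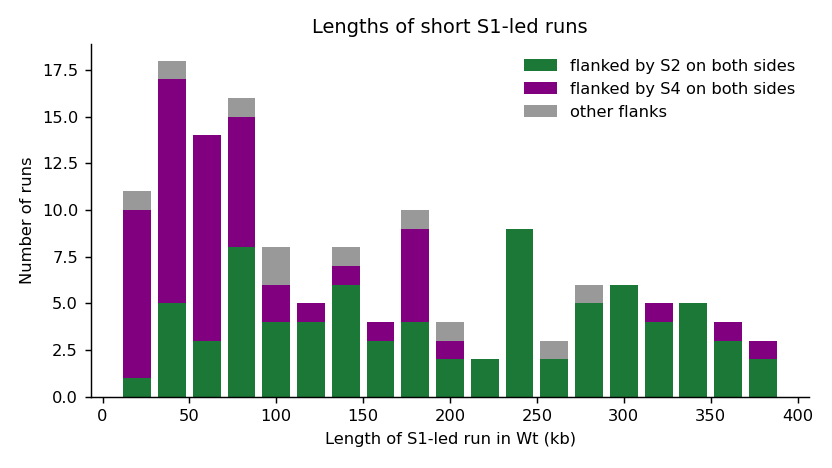
Number of short S1-led runs in Wt (vertical axis) by run length in kb (horizontal axis), stacked by the fraction that led on both sides. The S4-flanked runs gather at 20 to 60 kb (32 of 53), while the S2-flanked runs spread up to 380 kb.

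The S2-flanked runs had S1 scores above the chromosome mean. In every one of the 78 the deposited S1 score, in SD units over the chromosome with mean 0, was above 0 in both lines. Its lowest, median and highest values over these runs were 0.0319, 1.14 and 5.25 in the clone, against 0.263, 1.19 and 5.00 in Wt. The median S1 score over all windows was -0.457 in the clone and -0.460 in Wt. Over windows led by S2 in Wt it was 0.129 in the clone and 0.155 in Wt. A score above 0 thus does not by itself set these runs apart from S2-led DNA. The S4 score of the S2-flanked runs was low, with a median of -0.995 in the clone and -0.962 in Wt.

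By the sign of their S1 score, most S4-flanked runs went against the name early foci. Their S1 score was below 0 in 48 of 53 runs in the clone and in 45 of 53 in Wt. Its lowest, median and highest values were -0.839, -0.429 and 0.884 in the clone, against -0.505, -0.206 and 0.622 in Wt. A score below 0 was usual on the chromosome. The median S1 score over all 9787 windows was -0.457 in the clone and -0.460 in Wt. Over windows led by S4 in Wt it was -0.655 in the clone and -0.673 in Wt, lower than the medians of these runs. In Wt, S1 led in the S4-flanked runs over S4, S2 and S3 signals that were themselves low. The median summed signal of the 4 fractions lay at the 9.80th percentile of all windows in the clone and at the 13.1th in Wt. For the S2-flanked runs these percentiles were 73.1 in the clone and 66.2 in Wt.

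The share of a fraction in the summed signal shows what accompanied S1. In the S2-flanked runs, the median shares of S1, S2, S3 and S4 were 47.3%, 32.0%, 12.7% and 4.67% in the clone, against 47.7%, 30.7%, 14.1% and 5.40% in Wt. Signal thus decreased from S1 to S4 in both lines. In the S4-flanked runs the shares were 30.8%, 14.3%, 11.8% and 46.2% in the clone, against 44.2%, 11.4%, 11.1% and 33.0% in Wt. S1 and S4 thus took most of a low summed signal there. Over windows led by S4 in Wt, the median S1 share was 8.73% in the clone and 10.7% in Wt. Their median S4 share was 59.3% in the clone and 57.1% in Wt. Over all windows, the median S1 share was 14.1% in the clone and 16.3% in Wt, and the median S4 share 28.9% and 27.8%. A timing index weights S1 to S4 by 4, 3, 2 and 1 and divides by their sum, so that higher is earlier. Its median was 3.24 in the clone and 3.21 in Wt over the S2-flanked runs, and 2.27 in the clone and 2.61 in Wt over the S4-flanked runs. Over all windows it was 2.20 in the clone and 2.27 in Wt, and over windows led by S4 in Wt 1.69 and 1.75.

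**Figure D2:**
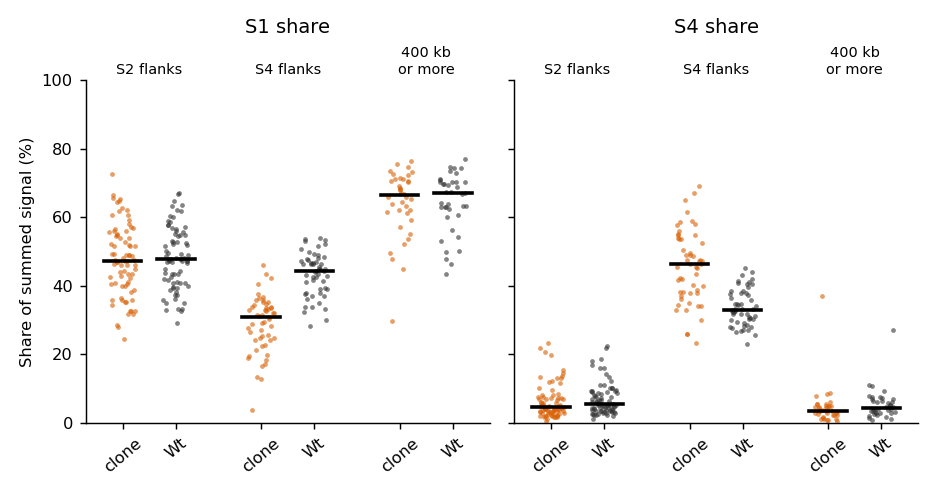
Share of S1 (left) and of S4 (right) in the summed signal, in percent, for each run in the clone (orange) and in Wt (grey). Runs are grouped as S2-flanked, S4-flanked and 400 kb or more, and bars are medians. In the S4-flanked group the median S1 share was 30.8% in the clone and 44.2% in Wt, and the median S4 share 46.2% and 33.0% in the same order.

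The clone showed which runs led in S1 in a second set of libraries. Over windows, S1 led in the clone in 803 of the 1078 member windows (74.5%), against 20.6% of all 9787 windows. In windows of S1-led runs of 400 kb or more it led in 1063 of 1113 (95.5%). Within the short runs the kinds differed: S1 led in 675 of 775 windows (87.1%) of S2-flanked runs and in 73 of 233 windows (31.3%) of S4-flanked runs. In the S4-flanked runs S4 led in 158 windows (67.8%), against 43.2% of all windows. Of all windows on the chromosome 88.7% kept their leader, 7.07% were led by a later fraction in the clone and 4.27% by an earlier one. A member window could only keep S1 or pass to a later fraction.

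Counted by run means, S1 kept its lead in the clone in 81 of 141 short runs (57.4%) and in 37 of 38 longer runs (97.4%). Among all 784 runs of any fraction, 82% kept their leader. Among runs under 400 kb it was 78.8% in all, and 85.6% of those led by S2, 89.3% of those led by S3 and 72.3% of those led by S4. The lower figure for short S1-led runs went with the S4-flanked kind. S1 kept its lead in 66 of 78 S2-flanked runs (84.6%), close to short runs of S2 and S3, and in 8 of 53 S4-flanked runs (15.1%). The other 45 S4-flanked runs were led by S4 in the clone. The S4-flanked count depended on the settings. Without division by the mean 35 runs were S4-flanked, of which 2.86% kept S1. With windows in the lowest 10% of summed signal taken as missing, 12 of 136 short runs were, of which 33.3% kept S1. Runs beside a missing window no longer counted as S4-flanked there. With the clone quantile-normalized to Wt, 30.2% of the 53 kept S1.

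S2-flanked runs that kept the lead were longer at the median, with 240 kb (40 to 380 kb) against 70 kb (20 to 160 kb) for those that did not. All 40 of 200 to 380 kb kept it, as did 23 of 29 of 80 to 180 kb and 3 of 9 of 20 to 60 kb. In the S4-flanked kind S1 kept the lead in 4 of 32, 2 of 17 and 2 of 4 runs of 20 to 60, 80 to 180 and 200 to 380 kb. At 80 to 180 kb, where both kinds were present in number, the kept share was 79.3% for S2 flanks and 11.8% for S4 flanks.

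**Figure D3:**
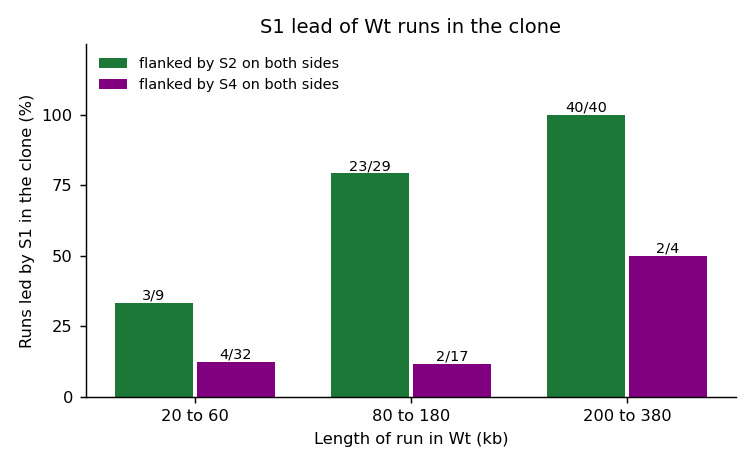
Percent of Wt runs whose mean was led by S1 in the clone (vertical axis) by run length in kb, for S2-flanked (green) and S4-flanked (purple) runs, with counts above the bars. At 80 to 180 kb the bars stand at 79.3% and 11.8%.

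The 12 S2-flanked runs that lost the S1 lead had a narrow lead in Wt at the median. In Wt, S1 was 1.01 to 1.43 times the next fraction in them (median 1.09). In the 66 that kept it, this was 1.07 to 2.97 (median 1.58), so the ranges overlapped. The ratio comes from the Wt values that made the choice, and runs with a narrow lead lay near its limit. In the clone S2 led 11 of the 12 and S3 led 1. S1 there was 0.704 to 0.985 times the leading fraction. The widest difference was at chr1:137820001-137980000, chosen after its values were seen. Its S1, S2, S3 and S4 scores were 0.0319, 0.506, 0.231 and -0.575 in the clone, against 0.768, 0.310, -0.331 and -0.815 in Wt. S1 led over 160 kb in Wt, and in the clone it led over 40 kb of that stretch, from 137860001 to 137900000.

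Around the S2-flanked runs the fractions were ordered by distance. In the mean profile of the clone, S1 was highest at the centre and was overtaken by S2 at 121 kb, and S2 by S3 at 260 kb. In Wt the same crossings lay at 120 and 266 kb. The S2 signal was highest 162 kb from the centre in the clone and 163 kb in Wt, and the S3 signal at 271 and 278 kb in the same order. S4 was lowest at the centre, at 0.285 times its chromosome mean in the clone and 0.306 times in Wt. Walking outward, S2 was followed by S3 on 112 of the 156 sides in Wt and by a return to S1 on 41. In the clone these counts were 83 and 26, and on 40 sides S1 still led in the first window. The S2-led stretch next to a run had a median length of 120 kb over the 156 sides in Wt. In the clone it was 100 kb over the 110 sides where S2 led next to the Wt run, so these medians cover different sides. Where S4 was reached, it began a median of 360 kb from the run's edge in both lines.

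Longer S1-led runs had a wider centre than S2-flanked short runs, and longer S2-led stretches and distances to S4 at the median. In their mean profile S2 overtook S1 at 273 kb from the centre in the clone and in Wt. The S1 share at the centre was 71.6% in the clone and 70.2% in Wt, against 53.4% in the clone and 52.8% in Wt at the centre of S2-flanked short runs. The S2-led stretch next to a long run had a median length of 130 kb over 54 sides in the clone and 150 kb over 74 sides in Wt. Where S4 was reached, it began a median of 410 kb from the edge in the clone (64 of 76 sides) and 420 kb in Wt (59 of 76 sides). These profiles are averages over runs of different length, and the length limit itself fixes part of the difference in width.

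**Figure D4:**
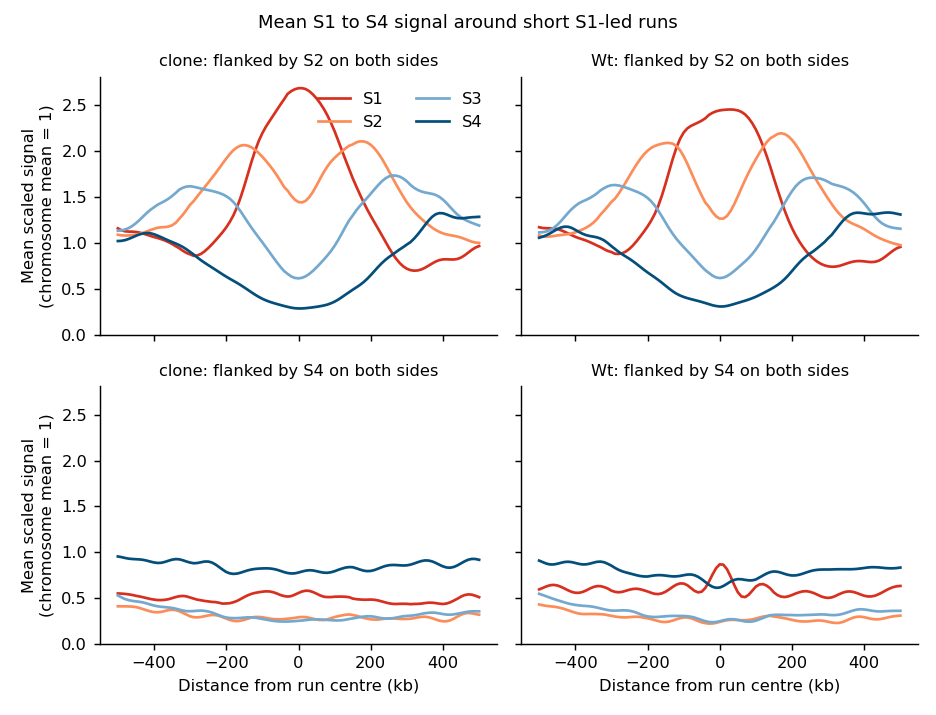
Mean scaled signal of S1 to S4 (chromosome mean = 1) against the distance from the run centre in kb, for 78 S2-flanked runs (top) and 53 S4-flanked runs (bottom), in the clone (left) and in Wt (right). Around S2-flanked runs S1, S2 and S3 peak at growing distance in both lines. Around S4-flanked runs S4 is the highest line throughout in the clone, while in Wt S1 stands above it at the centre, where the runs were chosen.

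The S4-flanked runs had no such order. The leader of the neighbouring window in Wt defined the kinds, so in Wt this contrast restates the choice. In the clone mean profile S4 lay above S1 at the centre, at 0.778 against 0.555 times the chromosome mean, and at every distance up to 500 kb. In Wt, S1 was 0.867 and S4 0.614 at the centre, and S4 overtook S1 at 35 kb. S2 and S3 were low at the centre, with 0.290 and 0.251 in the clone and 0.239 and 0.246 in Wt. On 87 of 106 sides the window next to the run was led by S4 in the clone too.

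The position of the S1 maximum was close in both lines for most S2-flanked runs. The 1 kb position with the highest S1 value within the bounds of the Wt run differed by a median of 12 kb (quartiles 5 and 37.75 kb). This was 9.04% of the run length. It lay within 20 kb in 46 of 78 runs. In the S4-flanked runs the median distance was 15 kb, but this was 30% of the shorter length. In these the clone maximum lay within 1 kb of the run's edge in 28 of 53 runs, against 6 of 78 S2-flanked runs.

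The S1 share was ordered alike in both lines among S2-flanked runs. Across the 78 runs, the S1 share in the clone and in Wt had a Spearman rho of 0.903 and a Pearson r of 0.887. Across the 53 S4-flanked runs they were 0.0322 and 0.0394. The deposited S1 score gave a rho of 0.931 and an r of 0.935 across the S2-flanked runs, and 0.532 and 0.768 across the S4-flanked runs. The S1 share in the clone also went with run length among S2-flanked runs (rho 0.717), with medians of 34.2%, 43.3% and 54.2% at 20 to 60, 80 to 180 and 200 to 380 kb. Runs share libraries and smoothing, so these coefficients describe the profiles only. The Wt share was also among the values that made the choice. It ranged from 29.0% to 67.1% over the S2-flanked runs and from 28.1% to 53.9% over the S4-flanked runs. In 46 of the 53 S4-flanked runs it was a share of a summed signal below the 25th percentile of Wt. The part of these limits in the contrast between the kinds was not tested.

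The extent of S1-led DNA was similar in both lines where the run persisted. Of the 78 S2-flanked runs, 70 met exactly 1 S1-led run in the clone. The clone run was longer than the Wt run in 22, of equal length in 16 and shorter in 32, with a median difference of 0 kb (quartiles -35 and 20 kb). Only 2 of the S2-flanked runs met a clone run of 400 kb or more, and 7 met no S1-led window. Applied to the clone, the same rule gave 127 short runs. Of the 141 Wt runs 96 (68.1%) met one of them without meeting a longer clone run, and of the 127 clone runs 99 (78.0%) met a short Wt run without meeting a longer one. The kinds differed: 69 of 78 S2-flanked Wt runs (88.5%) met one, against 19 of 53 S4-flanked Wt runs (35.8%). Of the S4-flanked Wt runs, 34 met no S1-led window in the clone. The overlap was not counted for runs led by other fractions.

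Over the runs chosen in Wt, the timing index differed between the lines more in the S4-flanked than in the S2-flanked kind. The Wt values compared here also made the choice, which favours a lower index in the clone. Over the 78 S2-flanked runs the median clone minus Wt difference of the index was 0.0173 (quartiles -0.0154 and 0.0542), and the index was higher in the clone in 50 runs and lower in 28. The sign of this median turned with the scaling, at -0.00265 with the 5th percentile set to 0 and -0.00309 with the clone's fractions quantile-normalized to Wt. Over the 53 S4-flanked runs the median difference was -0.423, and the index was lower in the clone in 50. With windows in the lowest 10% of summed signal taken as missing, the median was -0.126 over the 12 runs still S4-flanked. Runs beside a missing window left the kind there, so this value does not describe the kind without low signal. Of all windows, 55% had a lower index in the clone. Over the 38 runs of 400 kb or more the median difference was 0.0304, with 33 higher and 5 lower in the clone. Over the 10 short runs with other flanks it was -0.103 (-1.02 to 0.629), with 2 higher and 8 lower in the clone.

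Choosing runs for their S1 lead in Wt favours a lower value in the clone, so the choice was also made the other way round. The 31 S4-flanked runs found in the clone had a median clone minus Wt difference of 0.0666, with 17 higher and 14 lower in the clone, and S1 led 18 of them in Wt (58.1%). The 82 S2-flanked runs found in the clone had a median difference of 0.0239, and S1 led 71 of them in Wt (86.6%). The S4-flanked runs chosen in Wt thus differed more between the lines than those chosen in the clone, a contrast that was not tested.

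**Figure D5:**
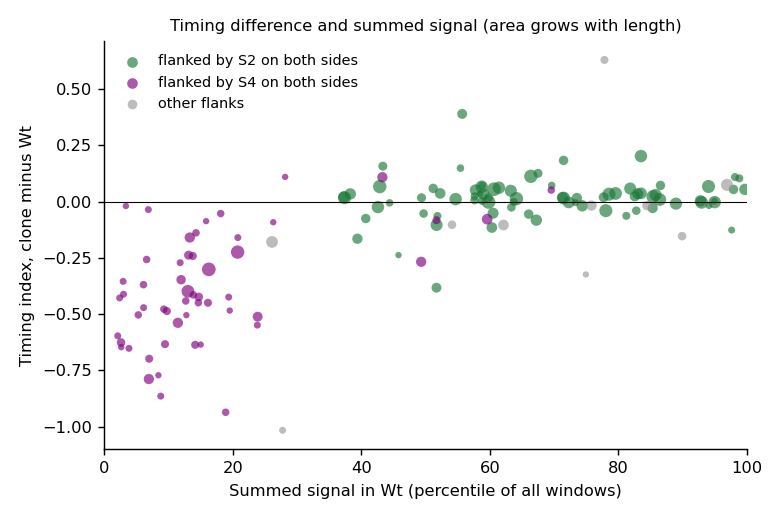
Clone minus Wt difference of the timing index (vertical axis) against the Wt summed signal as a percentile of all windows (horizontal axis), one point per short run, coloured by flanks, with an area that grows with run length. All 46 S4-flanked runs below the 25th percentile lie under 0, and the S2-flanked runs start at the 37.3th percentile.

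Low summed signal went with the S4-flanked kind almost throughout. The summed signal lay below the 25th percentile of Wt in 46 of 53 S4-flanked runs and in 0 of 78 S2-flanked runs. In these 46 the index was lower in the clone in 46 and S1 kept its lead in 4. In the 7 S4-flanked runs with more signal the index was lower in 4 and higher in 3, and S1 kept its lead in 4. The part of low signal in the difference between the lines was not tested.

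Those 7 runs included one of the most isolated of all. At chr1:95200001-95260000, 2120 kb from the next S1-led run, the S1, S2, S3 and S4 scores were 0.884, -0.242, 0.510 and 1.07 in the clone, against 0.532, -0.484, 0.296 and 0.660 in Wt. S1, S3 and S4 were thus all above the chromosome mean in both lines, and S1 took 33.8% of the scaled signal in the clone and 32.4% in Wt. At chr1:87880001-88060000, chosen after its values were seen, the S1 share was 35.2% in the clone and 33.7% in Wt, beside S4 shares of 23.4% in the clone and 28.1% in Wt. These runs carried early and late signal together.

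The S4-flanked runs were also gathered in one part of the chromosome. The 25 Mb from 140 Mb on held 45 of the 53, with 5 S2-flanked runs, a stretch chosen after the data had been seen. S1 led in 14.6% of its 1250 windows in the clone and in 23.8% in Wt, and S4 in 61.8% and 52.3% in the same order. On the whole chromosome S1 led in 20.6% of windows in the clone and in 2191 of 9787 in Wt. S4 led there in 43.2% in the clone and in 4119 of 9787 in Wt. Of the 298 windows of the stretch led by S1 in Wt, 207 belonged to the S4-flanked runs for which it was chosen. The choice thus set part of its S1 share in Wt. Its median summed signal lay at the 25.6th percentile of the chromosome in both lines. S1 kept its lead in 6 of these 45 runs and in 2 of the 8 elsewhere. S2-flanked runs were spread more evenly, with 2 to 13 in each 20 Mb of the chromosome.

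S2-flanked runs lay about as far from long S1-led runs as long runs lay from each other. The nearest S1-led run of 400 kb or more was a median of 1340 kb away (quartiles 535 and 3505 kb), and the nearest S1-led run of any length 380 kb. For long runs the next long run was a median of 1370 kb away, and the nearest S1-led run of any length 370 kb. S4-flanked runs lay 60 kb from the next S1-led run at the median, many of them side by side.

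Near the length limit 1 run stood apart. Of the 3 runs of 380 kb, the longest members, the S1 shares were 61.8%, 64.4% and 36.7% in the clone, against 60.2%, 67.1% and 46.3% in Wt. The third, at chr1:158500001-158880000, was S4-flanked, was led by S4 in the clone, and had S1 in the lead in 8 of its 19 windows there. Its index difference was -0.301, and its summed signal lay at the 16.3th percentile in Wt. All 6 runs of 400 kb, just left out, kept S1 in the clone, and the first 3 had S1 shares of 63.8%, 62.2% and 44.8% in the clone, against 60.7%, 63.2% and 46.5% in Wt.

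One short run lay in the region that had been modified. It spanned chr1:72920001-73300000, was S2-flanked, and was 2380 kb from any other S1-led run, the farthest among runs of 60 kb or more. It began 354.5 kb beyond the most downstream of the insertion positions that the labels give for the Hi-C lines, not the Repli-seq clone. Its S1, S2, S3 and S4 scores were 1.74, 0.395, -0.801 and -1.03 in the clone, against 1.60, 0.210, -0.718 and -1.01 in Wt. S1 was highest at the same position, 73163001, in both lines. The index was 3.47 in the clone and 3.41 in Wt, and the S1-led run of the clone had the same length, shifted by 1 window to 72900001 to 73280000. No other short S1-led run lay within 1 Mb of the modified region.

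The highest S1 score among the short runs lay at chr1:154940001-155180000, chosen after its values were seen. Its S1 share was 58.1% in the clone and 56.0% in Wt, which was not the highest among the short runs. Its S1 and S2 scores were 5.25 and 3.19 in the clone, against 5.00 and 2.77 in Wt, while S4 was low at -0.974 and -0.904 in the same order. Its 4 fractions together exceeded those of 99.7% of windows in Wt, in the same 25 Mb that held most S4-flanked runs. The S1 maximum differed by 12 kb between the lines.

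By S1 share in the clone, the leading runs of 60 kb or more were a run at the chromosome's end and 4 S2-flanked runs. At chr1:195760001-196020000 S1 took 89.6% in the clone and 95.6% in Wt, with S2, S3 and S4 all below their means. S3 scores of -3.94 in the clone and -4.38 in Wt were clipped to 0 there, so these shares rest partly on the clipping. At chr1:125260001-125580000 it took 66.3% in the clone and 66.8% in Wt, at chr1:26740001-27080000 65.6% in the clone and 61.8% in Wt, and at chr1:122740001-123000000 65.2% in the clone and 63.3% in Wt. Their S1 maxima lay 173, 2 and 7 kb apart between the lines, in the same order of runs, so that of the first differed by 54.1% of its length.

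The remaining run of that group, chr1:113900001-114060000, was earlier in the clone. S1, S2, S3 and S4 scores were 1.88, -0.239, -0.968 and -0.983 in the clone, against 0.993, 0.397, -0.494 and -0.865 in Wt. S1 was higher and S2 and S3 lower, so that the S1 share was 72.7% in the clone and 47.6% in Wt. The S1-led run was 300 kb long in the clone (113840001 to 114140000) and 160 kb in Wt. Within the bounds of the Wt run, the S1 maximum lay 85 kb farther along the chromosome in the clone. Among S2-flanked runs this run had the largest index difference, at 0.39. The next 3 towards earlier timing were at 97380001 to 97680000 (0.20), 180940001 to 181080000 (0.18) and 80700001 to 80820000 (0.16).

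The largest differences towards later timing in runs of 60 kb or more were all S4-flanked. At chr1:163080001-163140000 the S1, S2, S3 and S4 scores were -0.615, -0.831, -0.725 and 0.286 in the clone, against -0.00304, -0.869, -0.812 and -0.476 in Wt, and the index difference was -0.936. At chr1:149620001-149800000 the S1 share was 24.2% in the clone and 49.1% in Wt, and the summed signal lay at the 1.52th percentile in the clone and the 6.93th in Wt. The other 3 runs, of 80 kb each, began at 151940001, 158940001 and 151520001, with differences of -0.698, -0.636 and -0.633.

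Other runs far from any S1-led neighbour were S2-flanked or bordered by S2 and S3. The run at chr1:125260001-125580000 lay 1780 kb from the next. That at chr1:115680001-115880000, with S2 on one side and S3 on the other, lay 1620 kb away, with an S1 share of 33.0% in the clone and 38.9% in Wt. That at chr1:182520001-182760000 lay 1440 kb away, with 45.0% in the clone and 47.6% in Wt.

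Of the 10 runs with other flanks, 4 began at or beyond 195000001, near the chromosome's end, where the profiles held extreme values. At chr1:195380001-195460000 the S3 and S4 scores were -4.93 and -4.61 in the clone, against -4.14 and 0.329 in Wt, and the index was higher in the clone by 0.629. At chr1:195220001-195260000, chosen after its values were seen, the S1 share was 0% in the clone, where the score of -1.64 was clipped, and 56.9% in Wt. These 2 opposite differences lay within 300 kb of each other. S1 kept its lead in the clone in 7 of the 10 runs.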

How the data were processed

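The deposited Repli-seq values are scores, 1 per kb, which the file headers call normalized. They have mean 0 and SD 1 over chromosome 1 (196153 positions). Reads were aligned with Bowtie2 to galGal5, per the submitters' processing notes; the sources used here state no smoothing, filter or count, so depth is unknown. Nascent DNA went through whole-genome amplification, per the labels' protocols. The authors' Wt weighted-average score was used only for the positions it leaves out, which 2 short runs touch.

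Windows of 20 kb needed 10 values. In Wt, 21 windows summed to 0 in all fractions and were taken as missing. Shares, index, runs, neighbours and S1 maxima were computed with Python 3.11.15, numpy 2.4.6 and pandas 2.3.3, and the caller was checked on simulated profiles. These held only runs with a clear S1 lead and S2 on both sides, so weak or S4-flanked runs were not covered. With 1 library per group nothing was tested, and windows and runs are not replicates. The members, lists and alternatives were chosen with earlier results of these data known. Runs named are the 3 longest and the 3 shortest left out, those of 60 kb or more with the 5 highest clone S1 shares, largest distances, and largest index differences each way, and those within 1 Mb of the modified region; others are said to be chosen after seeing values. An alternative moved a result beyond an exact (Clopper-Pearson) 95% interval for percentages, 1.5-fold for counts, 20 kb for the profile distance, or 1 SD over windows or runs. The interval takes windows or runs as independent, which they are not, so it served as a fixed limit and not as a sampling error.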

Additional observations from a re-analysis of the deposited data

How the results depend on the processing

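Of 126 values under alternative settings for 17 results, 109 stayed within the limits set and 17 moved beyond them; 51 were chosen after seeing the data. Of those within the limits, 4 had the opposite sign. For medians the limit was 1 SD over single windows or runs, which is wide for a median. It was 0.272 for the index difference over all members, so staying within such a limit says little about stability. The median index difference over all members was -0.0283, but 0.0242 for runs chosen in the clone and 0.0160 without the S4-flanked runs. Over S2-flanked runs it was 0.0173, but -0.00265 with the 5th percentile set to 0 and -0.00309 with quantile normalization. No direction is read from either median. Without the S4-flanked runs, S1 led in the clone in 86.4% of member windows and 83.0% of runs, and 87.5% of runs met a short clone run. With runs of 60 kb or more only, these were 77.3%, 69.6% and 82.1%, S2 flanked 64.3% of runs, and 32 runs were S4-flanked. S1-led member windows in the clone were 70.6% without division by the mean, 80.5% where S1 had to be 1.1 times the next fraction, and 78.6% without the lowest 10% of summed signal. S4-flanked runs numbered 35 without division and 12 with low-signal windows taken as missing. Runs beside a missing window no longer counted as S4-flanked, while all short runs still numbered 136. S1 kept its lead in the clone in 2.86% of S4-flanked runs without division and 30.2% with quantile normalization. With low-signal windows as missing, S1 kept its lead in 33.3% of the 12, and their median index difference was -0.126. Under every setting run, S2-flanked runs numbered 70 to 83 and kept S1 in 76.6% to 90.3%. For the remaining shifts the cause was not tested. No paired analysis was possible because every fraction of each line was a single library. Without counts, the limits set by depth are not known.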
